A study of Mus musculus with 52 samples.

Results

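The comparison of HM-1 with B6NT set a mouse embryonic stem (ES) cell line long used for gene targeting against a second mouse ES line on 4 of the series' 52 two-colour cDNA arrays. Its members are the 4 arrays whose titles name this pair, and the values described are the genes and unnamed probes that these arrays measured, 16493 of 17053 features tested. On arrays 1 and 2 the cDNA of B6NT carried Cy5 and that of HM-1 carried Cy3, and on arrays 3 and 4 the dyes were exchanged. The study compared 7 ES lines described by their source of donor nuclei, in 13 pairwise comparisons of 4 arrays each. The labels give no treatment, passage, age or sex for either line and do not spell out the letters of B6NT; HM-1 is known as an Hprt-deficient line. Each channel held cDNA reverse transcribed from 20 microgram of total RNA. The protocol text mentions homogenised organs and a pooled reference from control animals, whereas both channels of each array are labelled with the name of an ES line; those names were used.

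Values are log2 ratios turned by the dye labels, B6NT minus HM-1 unless another comparison is named; for any other pair, "A vs B" gives B minus A. A positive value means more signal from B6NT (or the second-named line) under the reading that the deposited ratio is Cy5 over Cy3. The dye in the numerator is not stated, and under the opposite reading every sign turns. Log2 is likewise a reading of the deposited values. The 4 arrays measured between 19528 and 20200 probes of 20794, after removal of a constant top value near 16 that 20 to 53 probes per array shared. Array 3 had the widest spread of ratios (SD 1.18) and array 2 the narrowest (0.803). Arrays of the same dye orientation had rank correlations of 0.309 and 0.216 over features, and arrays of opposite orientation, after turning, had correlations between -0.0578 and -0.00996. Ratios hold no level of either line, so the ES identity of the 2 lines could not be checked against their marker levels. The labels do not say whether the 4 arrays came from separate cultures or RNA extracts, so the p-values measure only the spread between arrays.

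ES cells are held in an undifferentiated state by a network of transcription factors around Oct4, Sox2 and Nanog, and genes such as Zfp42 and Dppa3 mark the naive form of that state. Their imprinted genes, which are read from the maternal or the paternal copy alone, are known to drift in culture. ES cells with more than a single X chromosome keep their X chromosomes active until they differentiate, and the balance of X-linked against autosomal expression then depends on how many X chromosomes a line carries.

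B6NT and HM-1 differed past the threshold, an adjusted p under 0.05, in 28 features, 0.17% of those tested. Of these, 21 were positive (0.127%) and 7 negative (0.0424%). A gene symbol was listed for 19, of which 15 were positive and 4 negative, and 6 of the 15 lay on the X chromosome. The largest negative value was that of Zfp42 and the largest positive value that of Rhox5, among the 18 named genes with the same sign on all 4 arrays; Arf3 was the exception. The median over all features was 0.02, and 866 features (5.25%) had an unadjusted p under 0.05. The count rests on the joint fit of all 52 arrays: the 4 arrays fitted alone called 0 features, with 1445 at an unadjusted p under 0.05 with a dye term and 929 without. It also rests on the turning by the labels, since the ratios taken as they stand gave 57 calls, all negative, with 1 of the 28 among them. Without array 3 the count was 16, with 8 positive and 8 negative, and without array 1 it was 43. With the arrays scaled to equal spread the count was 372, of which 240 were positive and 132 negative, and all 28 were among them.

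Zfp42 (chromosome 8), also called Rex1, is a zinc finger gene whose expression marks undifferentiated ES cells of the naive type. It was at -2.98 and -2.97 on arrays 1 and 2 and at -2.64 and -3.003 on arrays 3 and 4. All 4 arrays were far below 0 and within 0.4 of each other, whichever dye the line carried. The fitted ratio was -2.90 ± 0.40 (SE of the joint fit, adjusted p = 1.3e-04), a 7.45-fold difference. The ratio is that of 4 arrays, whereas its SE and p take the residual spread of the feature from all 52 arrays. The same holds for every other SE and p of the joint fit given here. On the 24 arrays that reach the same difference through #4 (B6), HM-1 NT and ZFCUMNT, Zfp42 was at -2.60 ± 0.33 (adjusted p = 6.0e-06). Those 3 routes gave -2.77, -2.001 and -3.02, each with an SE of 0.57. HM-1 NT minus HM-1 was at 0.24 ± 0.40 for this gene, while the other lines minus HM-1 ran from -2.85 (#4 (B6)) to -2.14 (B6PGA), lower than in HM-1. Since Zfp42 had the largest difference among named genes, the 250 bases before its start are shown, from RefSeq on GRCm38.p6, with its octamer ATTTGCAT, the motif that POU factors such as Oct4 bind, in capitals, starting 186 bases before the start site, at chr8:43307010-43307259 on the minus strand:
Zfp42: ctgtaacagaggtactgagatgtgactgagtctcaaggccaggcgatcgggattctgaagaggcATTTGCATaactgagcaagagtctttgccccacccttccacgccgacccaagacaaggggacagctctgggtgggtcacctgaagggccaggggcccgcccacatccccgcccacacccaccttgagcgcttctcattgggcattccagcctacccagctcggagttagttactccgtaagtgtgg
The octamer, searched on both strands, was in 1.6% of all 32851 such windows and in the windows of 2 called genes, Zfp42 and H3f3b, of the 15 that had a window. A match describes the letters only, and no array here measured the promoter.

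The histone gene H4c8 (chromosome 13), a replication-dependent H4 gene, was at -1.05 and -0.80 on arrays 1 and 2 and at -1.46 and -1.08 on arrays 3 and 4. All 4 values were negative and the fitted ratio was -1.10 ± 0.15 (adjusted p = 1.1e-04). H4 genes have nearly the same coding sequence, so signal from other copies on this probe cannot be told apart. H4c1 and H4c9, other H4 genes tested, were at 0.06 ± 0.44 and -0.15 ± 0.30 and not called. They were chosen after their values were seen. H4c8 was past the threshold in each of the 6 comparisons with HM-1, from -1.28 to -0.98, comparisons that share that line. It was at -0.00 ± 0.15 in B6NT vs HM-1 NT and at -0.01 ± 0.15 in #4 (B6) vs B6NT. H3f3b (chromosome 11), which encodes the replacement histone H3.3, was at -0.85, -0.60, -1.20 and -1.28, with a fitted ratio of -0.98 ± 0.21 (adjusted p = 0.021). Both of its probes were negative, at -0.84 and -1.12 averaged over arrays, but the call did not hold without array 3 (adjusted p = 0.168) or array 4 (0.164). Of 16 histone and chaperone genes tested, these 2 were called and 7 were positive against 9 negative, with a median of -0.08. Among all features 0.17% were called and 53.2% were positive. The list's median on the indirect arrays was -0.21. Histone H3c1, chosen after its values were seen, was at -0.95 ± 0.35 and not called (adjusted p = 0.49). The window before H4c8 is shown because its p was the smallest of all features. The cyclic AMP response element TGACGTCA, bound by CREB and ATF factors, is in capitals 70 bases before the start, at chr13:23530794-23531043 on the plus strand:
H4c8: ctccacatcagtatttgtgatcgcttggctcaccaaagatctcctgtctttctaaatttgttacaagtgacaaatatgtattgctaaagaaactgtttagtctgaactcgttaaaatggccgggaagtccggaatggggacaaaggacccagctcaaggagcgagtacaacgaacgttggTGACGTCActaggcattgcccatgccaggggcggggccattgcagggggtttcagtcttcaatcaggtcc
This element, which reads the same on both strands, was in 1.55% of all windows and in those of 2 called genes, H4c8 and Peg3.

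Dhcr7 (chromosome 7) encodes 7-dehydrocholesterol reductase, which makes cholesterol from its direct precursor. It was at -2.29, -1.52, -2.23 and -1.53 on arrays 1 to 4, so that each dye orientation held a larger and a smaller value and no array came near 0. The fitted ratio was -1.89 ± 0.39 (adjusted p = 0.015). The call did not hold without array 1 (adjusted p = 0.097) or array 3 (0.104). The indirect arrays gave -1.95 ± 0.31 (adjusted p = 2.9e-04), with -0.84 ± 0.55 via #4 (B6), -2.65 ± 0.55 via HM-1 NT and -2.36 ± 0.55 via ZFCUMNT. Of the 13 genes of the pathway tested, Dhcr7 included, 9 were positive and 4 negative, where 53.2% of all features were positive, with a median of 0.36 and no positive member called. Cyp51, the lanosterol demethylase, was at 1.09 ± 0.54 with array 1 at -0.53 and array 2 at 2.38. Hmgcs1, the synthase at the head of the pathway, was at 0.61 ± 0.32 here and not called, and at 1.09 ± 0.26 on the indirect arrays (adjusted p = 0.038). A sterol element, TCACNCCAC on either strand, was in 1.05% of all windows and in none of the 3 windows of Dhcr7.

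The X-linked genes past the threshold were 6, all of them positive. Rhox5, a reproductive homeobox gene of the X chromosome, was at 2.16 and 2.36 on arrays 1 and 2 and at 1.43 and 2.47 on arrays 3 and 4. No array was below 1.4, and the fitted ratio of 2.10 ± 0.37 (adjusted p = 1.7e-03) was a 4.30-fold difference. The indirect arrays gave 1.004 ± 0.30 (adjusted p = 0.18), and their routes were spread, at 0.00 via #4 (B6), 1.98 via HM-1 NT and 1.03 via ZFCUMNT (SE 0.52 each). The direct minus the indirect value of Rhox5 was 1.10 ± 0.47 (unadjusted p = 0.024, adjusted p = 1.0). Rhox5 was the only called gene among 6 Rhox and other germline genes tested, 5 of them positive, with Usp26 at 1.004 ± 0.54. Among all features 0.17% were called and 53.2% were positive. The window before Rhox5 is shown because it had the largest positive value among the called genes with a symbol. CCAAT boxes on either strand, the letters that NF-Y binds, are in capitals, with CCAATTGG holding overlapping matches, at chrX:37754358-37754607 on the plus strand:
Rhox5: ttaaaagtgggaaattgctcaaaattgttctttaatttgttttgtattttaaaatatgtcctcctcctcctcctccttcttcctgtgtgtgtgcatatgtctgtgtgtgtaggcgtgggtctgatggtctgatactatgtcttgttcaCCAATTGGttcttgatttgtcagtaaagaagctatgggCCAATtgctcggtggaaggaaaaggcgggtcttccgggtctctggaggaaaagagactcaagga
CCAAT was in 33.8% of all windows, and 9 of the 15 called genes with a window held it in at least 1 window. Those 15 genes had 18 windows, so the count by gene and the share by window are in unlike units.

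Rab9, a small GTPase of late endosomes, had the closest values of any called gene: 1.23, 1.18, 1.20 and 1.26 on arrays 1 to 4. Its fitted ratio was 1.22 ± 0.19 (adjusted p = 3.3e-04) and its indirect ratio 1.24 ± 0.16 (adjusted p = 4.3e-06). Bex1, a small protein first found in brain, was at 2.10 and 2.17 on arrays 1 and 2 and at 1.18 and 0.81 on arrays 3 and 4. The arrays with B6NT in Cy5 were higher than those with B6NT in Cy3, and the groups of 2 did not overlap, but all were positive (fitted 1.57 ± 0.25, adjusted p = 3.4e-04). Rbm3, a cold-inducible RNA-binding protein, had the same order, with 1.30 and 1.32 against 0.90 and 0.89, and a fitted ratio of 1.10 ± 0.20 (adjusted p = 2.2e-03). Mpp1, a membrane scaffold protein, was at 1.74, 1.55, 0.88 and 1.08 (fitted 1.31 ± 0.30, adjusted p = 0.040). Rpl39, a protein of the large ribosomal subunit, was at 1.25, 1.06, 0.43 and 0.15 (fitted 0.72 ± 0.16, adjusted p = 0.038). The calls of Mpp1 and Rpl39 were lost whichever array was left out, with adjusted p from 0.063 to 0.22 for Mpp1 and from 0.073 to 0.17 for Rpl39. On the indirect arrays both passed, Mpp1 at 1.17 ± 0.24 (adjusted p = 8.2e-03) and Rpl39 at 0.69 ± 0.13 (adjusted p = 3.0e-03). Bex1 and Rbm3 passed there too, at 1.51 ± 0.20 and 1.04 ± 0.16.

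**Figure D1:**
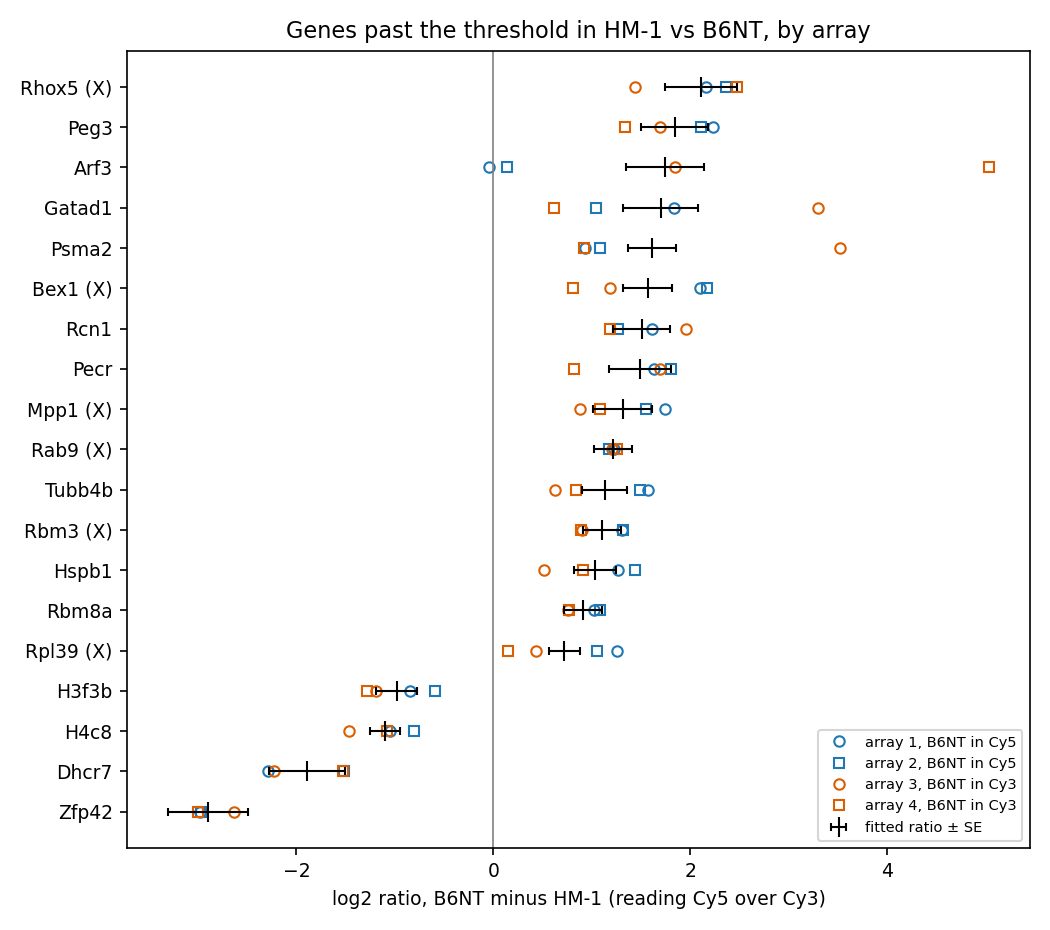
Log2 ratios (B6NT minus HM-1, horizontal axis) of the 19 named genes past the threshold, with each array as an open symbol, blue for B6NT in Cy5 and orange for B6NT in Cy3, and the fitted ratio ± SE in black. Zfp42, Dhcr7, H4c8 and H3f3b lie left of 0 on all 4 arrays, Rab9 lies within 1.18 to 1.26, and Arf3 runs from -0.05 on array 1 to 5.03 on array 4.

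The positive values of the X chromosome went beyond the called genes. Over 222 X-linked genes tested the median was 0.27, against 0.03 over 8563 autosomal genes, and the medians of single autosomes ran from -0.04 to 0.06. Of the X-linked genes 72.5% were positive, against 53.7% of autosomal genes and between 45.8% and 59.8% on single autosomes. Called genes made up 2.70% of the X-linked genes, all positive, against 0.105% of autosomal genes in that direction. At an unadjusted p under 0.05, 37 X-linked genes were positive (16.7%, against 3.66% of autosomal genes and 3.49% of all features) and 3 were negative (1.35%, against 1.85% and 1.76%). Among 207 X-linked genes measured on all 4 arrays, 66 were positive on each of them (31.9%) and 5 negative on each (2.42%). For autosomal genes these shares were 9.66% and 6.80%. These are descriptions of a chromosome, given without a test.

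**Figure D2:**
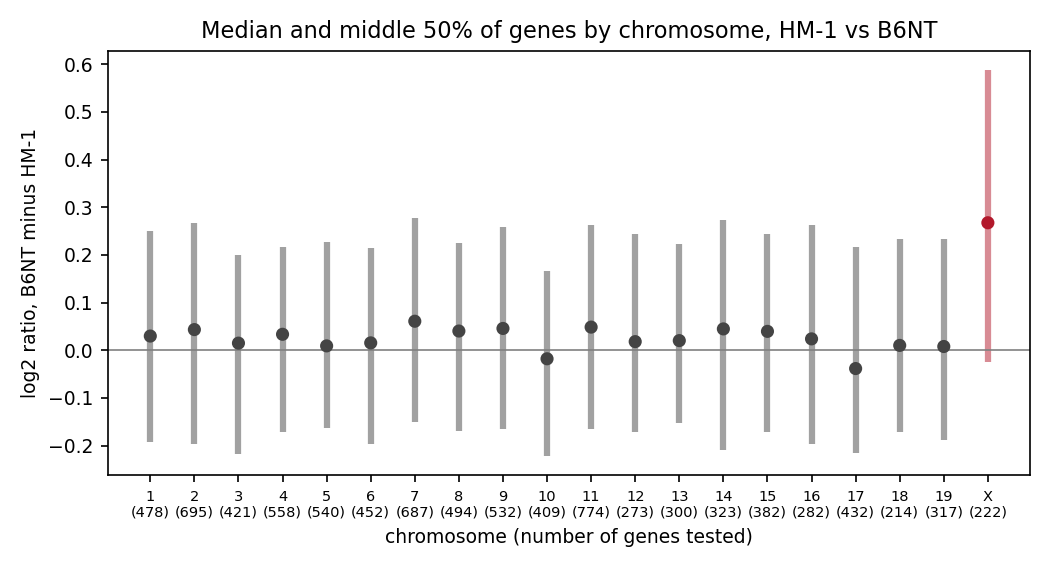
Median log2 ratio (B6NT minus HM-1, vertical axis) of the genes of each chromosome, with the middle 50% of genes as a bar and the number of genes tested in brackets. The X chromosome, in red, has a median of 0.27 over 222 genes, and the 19 autosomes lie between -0.04 and 0.06.

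The shift was seen on each array. The X-linked median exceeded the autosomal one by 0.41 on array 1, 0.28 on array 2, 0.20 on array 3 and 0.24 on array 4. Both medians were higher where B6NT carried Cy5: 0.53 and 0.42 for X-linked genes on arrays 1 and 2, against 0.11 and 0.17 on arrays 3 and 4. Over the other arrays, the X-linked median was 0.42 via HM-1 NT, but only 0.07 via #4 (B6) and 0.06 via ZFCUMNT, where the autosomal medians were -0.01, -0.01 and -0.11. HM-1 vs #4 (B6) had an X-linked median of -0.03 and HM-1 vs B6PGA one of 0.20, both with autosomal medians near 0, at -0.02 and -0.03. B6NT vs HM-1 NT had an X-linked median of -0.28 against 0.04 for autosomes. The labels give no sex or karyotype, and the Y chromosome offered 2 genes, Kdm5d at -1.09 ± 1.17 on 3 arrays and Zfy1 at 0.13 ± 0.46, whose errors exceed their values.

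**Figure D3:**
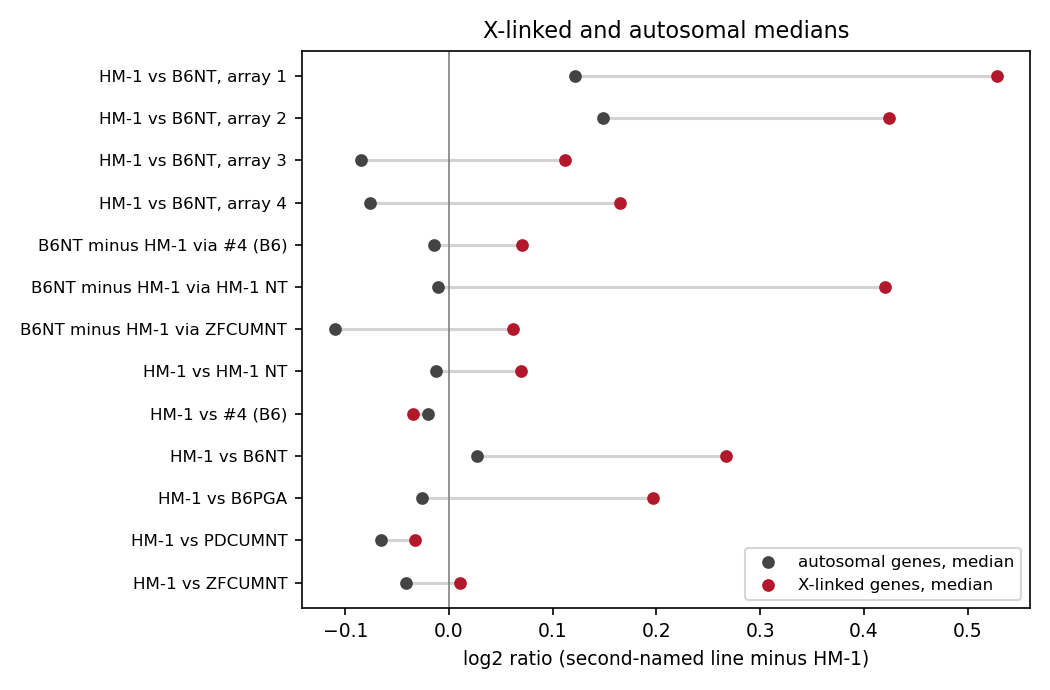
Median log2 ratio of X-linked genes (red) and autosomal genes (grey) on each of the 4 arrays of HM-1 vs B6NT, along each of the 3 indirect routes, and in each comparison with HM-1, where a positive value is toward the second-named line. The red point lies right of the grey point on all 4 arrays and all 3 routes, by 0.08 via #4 (B6) and by 0.43 via HM-1 NT.

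Several further X-linked genes did not pass the threshold and were chosen after their values were seen. Bex2, a paralog of Bex1, was at 2.27 ± 0.54 (adjusted p = 0.068), with array 3 at 4.13 and the others between 1.13 and 2.15. Eif1ax, a translation initiation factor, was at 0.87 ± 0.23 (adjusted p = 0.11), Tsr2, a chaperone of a ribosomal protein, at 0.88 ± 0.24 (0.12) and Prps1, a phosphoribosyl pyrophosphate synthetase, at 0.90 ± 0.26 (0.16). These 3 were positive on all 4 arrays, and all 3 passed on the indirect arrays, with Prps1 at 1.09 ± 0.21 (adjusted p = 3.0e-03). Nr0b1, an X-linked orphan nuclear receptor of the naive network, went the other way on all 4 arrays, at -0.25, -1.05, -1.20 and -0.74 (fitted -0.81 ± 0.33, not called).

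Peg3 (chromosome 7), an imprinted zinc finger gene read from the paternal copy, was at 2.22 and 2.10 on arrays 1 and 2 and at 1.69 and 1.33 on arrays 3 and 4. All values were above 1.3, and the fitted ratio was 1.84 ± 0.34 (adjusted p = 4.7e-03), a 3.58-fold difference. The call was lost without array 3 (adjusted p = 0.055). The indirect arrays gave 1.497 ± 0.28 (adjusted p = 2.6e-03), with 1.01 via #4 (B6), 2.07 via HM-1 NT and 1.41 via ZFCUMNT. In the comparisons with HM-1 NT, HM-1 NT minus HM-1 was at 0.10 ± 0.34 for Peg3 and HM-1 NT minus B6NT at -1.97 ± 0.34, so the gene was higher in B6NT there too. It was the only called gene among 13 paternally expressed imprinted genes tested, of which 6 were positive and 7 negative, with a median of -0.10. Snrpn, the second in size, was at 1.11 ± 0.52 and not called (adjusted p = 0.85). It was positive on all 4 arrays, from 0.79 to 1.33, but at only 0.18 ± 0.42 on the indirect arrays. Of 13 maternally expressed imprinted genes none was called, 10 were negative and the median was -0.14. By array the median was -0.03 and 0.11 on arrays 1 and 2 and -0.47 and -0.29 on arrays 3 and 4. Among all features 0.17% were called and 53.2% were positive, so the lack of a call does not stand out in a list of this size. Grb10, a growth factor receptor adaptor, was at -0.77 ± 0.54 and Calcr, the calcitonin receptor, at -0.68 ± 0.42. The window before Peg3 is shown because it is the imprinted gene that passed. The element TGACGTCA is in capitals 178 bases before the start, at chr7:6730420-6730669 on the minus strand:
Peg3: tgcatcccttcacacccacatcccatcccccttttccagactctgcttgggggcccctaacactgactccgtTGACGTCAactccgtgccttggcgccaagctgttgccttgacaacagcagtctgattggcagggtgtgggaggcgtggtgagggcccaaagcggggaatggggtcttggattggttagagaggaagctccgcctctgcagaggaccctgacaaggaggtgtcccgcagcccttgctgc

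The other autosomal genes that passed were positive. Rcn1, a calcium-binding protein of the endoplasmic reticulum, was at 1.61, 1.26, 1.96 and 1.19 (fitted 1.51 ± 0.29, adjusted p = 5.9e-03), and its call was lost without array 3 (adjusted p = 0.096). Pecr, a peroxisomal enoyl-CoA reductase, was at 1.63, 1.80, 1.69 and 0.82 (fitted 1.49 ± 0.31, adjusted p = 0.021). Its call did not hold without array 1, 2 or 3 (adjusted p up to 0.148). Pecr had no mean indirect ratio, because B6NT vs HM-1 NT measured it on too few arrays. The other routes gave 1.33 ± 0.44 via #4 (B6) and 1.70 ± 0.44 via ZFCUMNT. Tubb4b, a beta-tubulin, was at 1.57, 1.48, 0.63 and 0.84 (fitted 1.13 ± 0.23, adjusted p = 0.013), and its adjusted p was between 0.053 and 0.064 without array 1, 3 or 4. Hspb1, the small heat shock protein Hsp25, was at 1.26, 1.43, 0.51 and 0.91 (fitted 1.03 ± 0.21, adjusted p = 0.015). Rbm8a, a core protein of the exon junction complex, was at 1.02, 1.08, 0.76 and 0.77 (fitted 0.91 ± 0.19, adjusted p = 0.021). Tubb4b, Hspb1 and Rbm8a were all higher on the arrays with B6NT in Cy5. Leaving out array 2, 3 or 4 ended the call of Hspb1 (adjusted p up to 0.096) and leaving out array 1, 2 or 3 that of Rbm8a (up to 0.118). Hspb1 and Rbm8a passed on the indirect arrays as well, at 1.08 ± 0.17 (adjusted p = 2.4e-04) and 0.88 ± 0.16 (1.1e-03). Rcn1 and Tubb4b did not, at 0.59 ± 0.23 (adjusted p = 0.52) and 0.60 ± 0.18 (0.22).

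Some fitted ratios rested on single arrays. Psma2, an alpha subunit of the proteasome core, was at 0.93, 1.08 and 0.92 on arrays 1, 2 and 4 and at 3.52 on array 3. Its fitted ratio was 1.61 ± 0.25 (adjusted p = 2.4e-04), and 0.96 without array 3 (adjusted p = 0.032), close to its indirect ratio of 0.94 ± 0.20 (adjusted p = 0.013). Gatad1, a GATA-type zinc finger protein of chromatin, was at 1.84, 1.05, 3.29 and 0.62 (fitted 1.70 ± 0.38, adjusted p = 0.038). Its 4 probes averaged 0.51, 2.78, 0.40 and 3.03, so they disagreed in size, and on array 3 a probe reached 7.41. Arf3, a small GTPase of the Golgi, was at -0.05, 0.14, 1.85 and 5.03 (fitted 1.74 ± 0.39, adjusted p = 0.040), all of its difference coming from the arrays with B6NT in Cy3. Without array 3 the adjusted p of Gatad1 was 0.64, without array 1 0.096, and that of Arf3 was 0.82 without array 4 and 0.096 without array 3. The indirect ratios of Gatad1 and Arf3 were -0.06 ± 0.31 and -0.06 ± 0.32.

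Of the 19 named genes, 18 were measured along all 3 indirect routes and 13 of them passed there, where 52 of 13424 features did (0.387%). These arrays hold other hybridisations of the same lines, and the labels do not say whether they used the same RNA. The test of the direct minus the indirect ratio called 0 of 13359 features (0%) with limma, with 374 at an unadjusted p under 0.05 (2.8%). Gatad1 and Arf3 had the widest gaps among the called genes with a symbol, 1.76 ± 0.49 and 1.81 ± 0.50 (adjusted p = 0.78 for both). With the ratios as they stand this test called 11 features, with the arrays scaled 3, and without array 2 or array 4 it called 1.

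**Figure D4:**
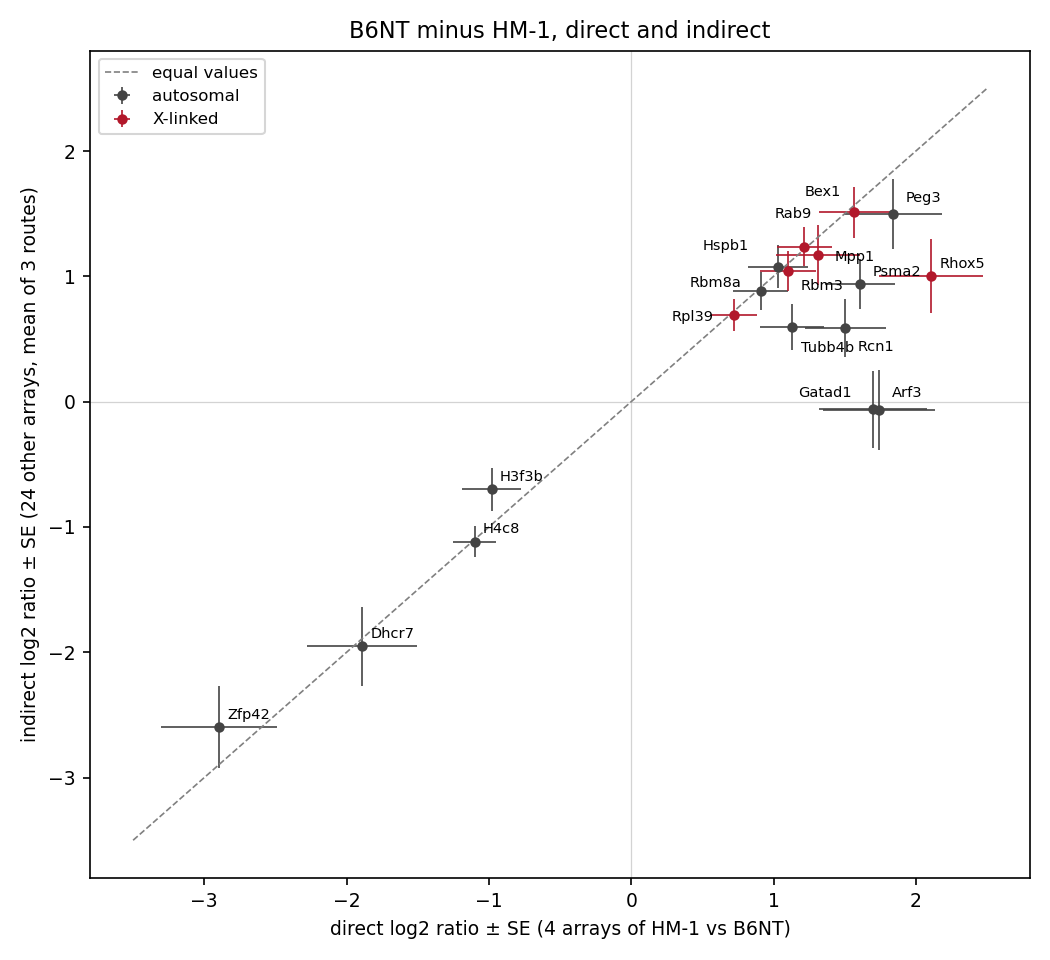
Direct log2 ratio on the 4 arrays of HM-1 vs B6NT (horizontal axis) against the indirect ratio on 24 other arrays (vertical axis) for the 18 called genes measured on both, each ± SE, with X-linked genes in red. Zfp42, H4c8, Dhcr7, Rab9 and Bex1 lie by the dashed line of equal values, and Gatad1 and Arf3 lie at -0.06 on the vertical axis.

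Of the naive pluripotency factors 16 were tested, 10 positive and 6 negative, with a median of 0.07, and Zfp42 was the only call. Among all features 53.2% were positive and 0.17% were called. Dppa3, also called Stella, was at 2.10, 1.91 and 1.37 on arrays 1 to 3 and at -1.03 on array 4, with a fitted ratio of 1.08 ± 0.35 (adjusted p = 0.29). The indirect arrays put it at 1.66 ± 0.28 (adjusted p = 7.3e-04). Esrrb was at -0.38 ± 0.47, Klf4 at 0.23 ± 0.18 and Fgf4 at 0.53 ± 0.37, none of them called; these and the next 2 were chosen after their values were seen. Pou5f1, which encodes Oct4, was at 0.26 ± 0.22 and Sox2 at -0.32 ± 0.45. Both belong to the 11 core pluripotency and Sall factors, of which none was called and 8 were negative, with a median of -0.20 (0.015 on the indirect arrays). Lin28a, an RNA-binding regulator of let-7 processing, was negative on all 4 arrays, from -1.10 to -0.64 (fitted -0.87 ± 0.26, adjusted p = 0.21). On the indirect arrays Lin28a was at -0.27 ± 0.21. Myc ran from -4.24 on array 4 to 1.25 on array 3 (fitted -1.40 ± 1.04). Of 20 genes of Nodal, Bmp and Wnt signalling none had an unadjusted p under 0.05. Over all features 5.25% did, so the lack of such genes does not stand out in a list of this size. Lefty1, a Nodal inhibitor, was at -0.65 ± 0.44 and Id1, a Bmp target, at -1.09 ± 0.56. Id1 was at -5.46 and -2.38 on arrays 1 and 2 and at 2.83 and 0.64 on arrays 3 and 4, so its sign differed with the dye, and it was at 0.17 without array 1.

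HM-1 vs #4 (B6) shares HM-1 with this comparison and has another line with B6 in its name on the opposite side. The test of the difference between the 2 comparisons called 3 of 16064 features (0.0187%), of which 1 had a symbol. Without array 3 or array 4 of HM-1 vs B6NT the count was 1, and with no dye term 0. Dppa5a, whose KH-domain protein is made in undifferentiated cells, was at 0.49 ± 0.20 in HM-1 vs B6NT and at -1.41 ± 0.20 in HM-1 vs #4 (B6), a difference of 1.89 ± 0.28 (adjusted p = 7.5e-04). On the arrays of HM-1 vs B6NT it was at 0.73, 1.10, 0.17 and -0.05, not called. Zfp42 had nearly the same value in both, -2.90 and -2.85, with a difference of -0.05 ± 0.57 that leaves room for more than 1 unit either way. Rhox5 was at 2.10 here and -0.03 there, a difference of 2.14 ± 0.52 that did not pass (adjusted p = 0.28). HM-1 drops out of this difference, which the arrays of #4 (B6) vs B6NT measured directly, with Rhox5 at 0.03 ± 0.37.

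Genes of protein folding, protein turnover and respiration were more often positive than not, while few passed. Of 38 heat shock proteins and chaperones 30 were positive, where 53.2% of all features were, with a median of 0.22, Hspb1 called and 5 positive against 0 negative at an unadjusted p under 0.05. Hspd1, the mitochondrial chaperonin, was at 1.12 ± 0.42. Of 39 proteasome subunits 30 were positive, with a median of 0.22 and Psma2 the only call. Of 65 respiratory chain and ATP synthase genes, 3 of them X-linked, 47 were positive, with a median of 0.18 and none called. At an unadjusted p under 0.05, 7 were positive and 0 negative, where 3.49% and 1.76% of all features were. At such a share, 0 negative does not stand out in lists of 38 or 65 genes. The indirect medians were smaller, at 0.14 for the chaperones, 0.13 for the proteasome and 0.07 for the respiratory chain. Cox7a2, a cytochrome oxidase subunit, was at 1.08 ± 0.36 and Atp5md, an ATP synthase subunit, at 1.25 ± 0.50. Cytosolic ribosomal proteins were divided, with 25 of 58 positive, a median of -0.04 and Rpl39 the only call. The medians of the first 3 groups were 0.32 to 0.38 on array 1 and between -0.06 and 0.10 on array 3, the array medians themselves being 0.12 and -0.08 after turning.

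**Figure D5:**
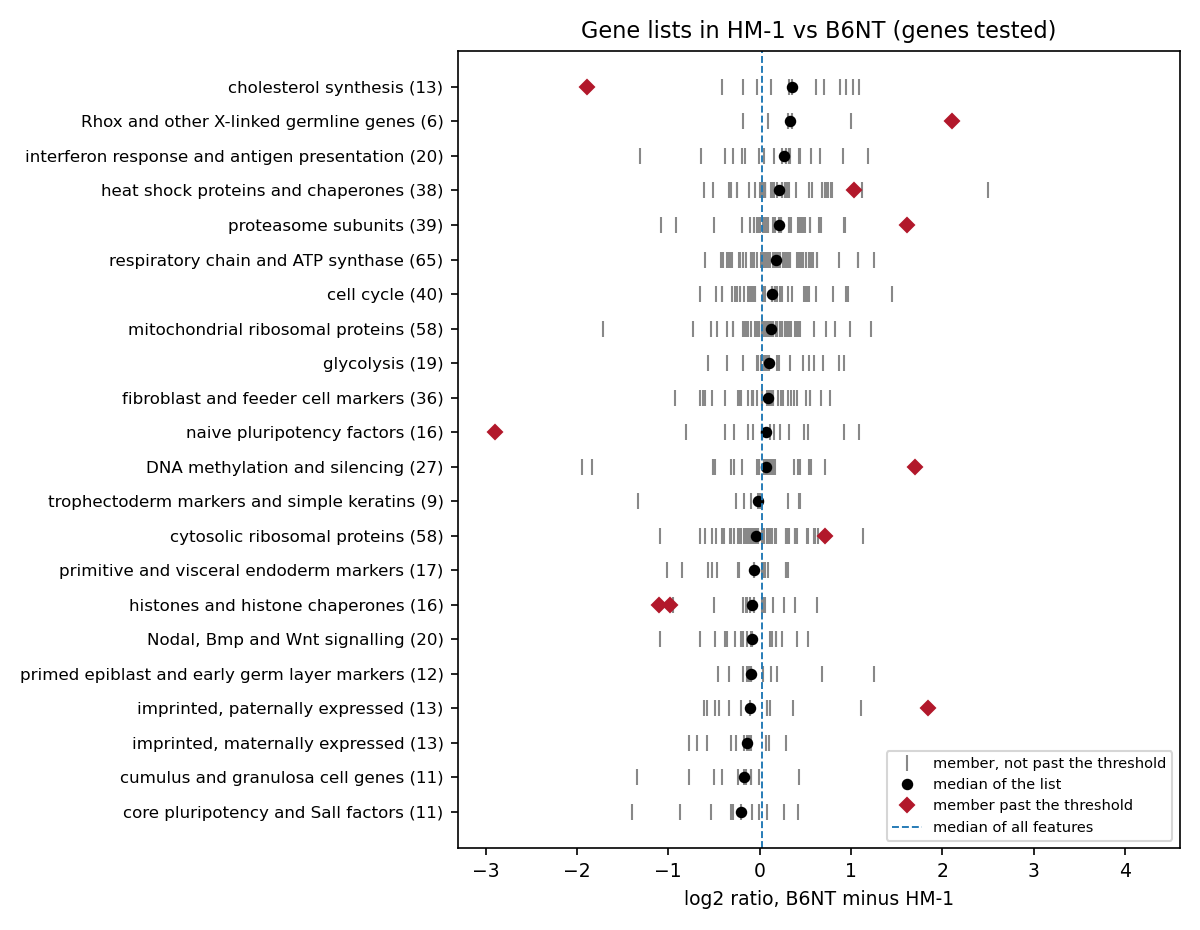
Log2 ratios (B6NT minus HM-1, horizontal axis) of the tested members of 22 gene lists, with list medians as black dots, called members as red diamonds and the median of all features (0.02) as a dashed line. List medians run from -0.20 (core pluripotency and Sall factors) to 0.36 (cholesterol synthesis), and no list holds more than 2 called members.

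Mitochondrial ribosomal proteins had 37 of 58 positive and a median of 0.12, glycolytic enzymes 14 of 19 and 0.11, and cell cycle genes 24 of 40 and 0.14, none of them with a call. On the indirect arrays the median of the glycolytic enzymes was -0.07, of the opposite sign. Ldha, lactate dehydrogenase, was at 0.86 ± 0.33, and Rbl1, the p107 pocket protein, at 1.45 ± 0.59 with arrays 1 and 2 near 0. Of 27 genes of DNA methylation and silencing Gatad1 was the only call, where 0.17% of all features were called. Chd4, the motor of the NuRD complex, was at -1.95 ± 0.55 (adjusted p = 0.17), carried by array 1 at -6.05, and Mbd4, a glycosylase of methylated sites, at -1.84 ± 0.66, with 0.41 and 0.36 on arrays 1 and 2 against -3.95 and -4.17 on arrays 3 and 4. Of 20 interferon and antigen presentation genes 13 were positive with a median of 0.26, and -0.17 on the indirect arrays. Ifitm3, a membrane protein that blocks viral entry, was positive on all 4 arrays, from 0.84 to 1.49, at 1.18 ± 0.29 (adjusted p = 0.073). Its indirect ratio was 0.55 ± 0.23 (adjusted p = 0.62).

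Markers of other cells that an ES culture could hold had no called member, where 0.17% of all features were called, a share too low to expect a call in lists of this size. Of 36 fibroblast and feeder markers 21 were positive with a median of 0.10, and a median of -0.07 on the indirect arrays, led in size by Postn (-0.93 ± 0.79) and Loxl1 (0.77 ± 0.46). Of 17 markers of primitive and visceral endoderm 8 were positive with a median of -0.06, and Afp was at -0.85 ± 0.31 with array 3 at -2.24. Of 9 trophectoderm markers and keratins 4 were positive, with a median of -0.02, Krt7 at -1.33 ± 0.57 and Krt8 at 0.44 ± 0.43. Of 12 primed epiblast and germ layer markers 5 were positive, with a median of -0.09 (0.029 on the indirect arrays) and Gsc at 1.25 ± 0.53. Of 11 cumulus and granulosa genes 10 were negative, with a median of -0.17, and the list's median lay between -0.23 and -0.17 on every array. Over all features 53.2% were positive, and the 6 genes of this list measured on the indirect arrays had a median of -0.0066. Kitl, the Kit ligand, was at -1.35 ± 0.57, carried by array 3 at -4.21. The part of other cells in the called genes was not tested.

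No gene was listed for 9 called probes, 6 positive and 3 negative. The 3 negative ones were at -3.24 ± 0.49, -3.0025 ± 0.47 and -2.01 ± 0.41, negative on all 4 arrays, and all 3 passed on the indirect arrays too, at -2.93, -2.61 and -1.64. The first of them was larger in size than Zfp42, at -3.46, -3.46, -2.04 and -4.01 on arrays 1 to 4. Of the 6 positive ones, 3 ran above 2.7, each with at least 1 array above 5, and their indirect ratios were 0.26, -0.37 and 0.55, none called.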

How the data were processed

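RNA of HM-1 and B6NT was compared on 4 two-colour arrays. The deposited table holds ratios of the 2 channels, read here as log2, made by the authors; scanner, background correction and normalization are not given in the sources used here. Of 20794 probes, 12771 had a symbol in the platform annotation and 8023 had none; symbols and chromosomes follow RefSeq GRCm38.p6. Probe coordinates are not given in the sources used here, so genes are placed by chromosome.

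Each ratio was turned by the dye labels to B6NT minus HM-1, values above 12 were removed, and probes of a gene were averaged. A joint limma 3.58.1 fit (R 4.3.3) over all 52 arrays had 1 coefficient per comparison and a dye term per feature. Features measured on at least 3 of the 4 arrays, in both orientations, were tested, and Benjamini-Hochberg adjustment ran over all of them with a threshold of 0.05. The indirect ratio is the mean of 3 routes on 24 other arrays from the same fit. Lists were described by counts and medians, with no set test. The script was tested on simulated data.

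Named genes were the called genes with a symbol and, per list, the 2 members of largest size measured on 4 arrays; others are marked in the text. The comparison, the lists and the tests were chosen with earlier results of these data known. Alternatives covered the turning, top values, centring, scaling, dye term, replicate block, array weights, filters, single probes, other models and each array left out. The number of arrays limits the precision.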

Additional observations from a re-analysis of the deposited data

Results flagged for a closer look

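Among the 19 called genes, Dixon's gap test set an array apart in 2. Psma2, at 1.61, had array 3 at 3.52 with the other arrays between 0.92 and 1.08, a gap of 0.936 of the range. Zfp42, at -2.90, had array 3 at -2.64 with the others between -3.003 and -2.97, a gap of 0.902 of a narrow range. Chance sets an array apart in about 5% of such groups, near 1 of the 19 genes.

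The difference between HM-1 vs B6NT and HM-1 vs #4 (B6) passed for Dppa5a (1.89 ± 0.28, adjusted p = 7.5e-04) and for 2 probes with no listed gene, at 2.80 ± 0.49 (adjusted p = 0.0086) and 1.54 ± 0.30 (adjusted p = 0.038). The first of these probes was at 0.92 in HM-1 vs B6NT and -1.88 in HM-1 vs #4 (B6), and the second at 0.58 and -0.96.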

How the results depend on the processing

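The 28 calls of HM-1 vs B6NT moved to 57 with the ratios as they stand, 372 with arrays scaled to equal spread, 246 with array weights, 139 with 1 coefficient per line, 14 with 1 value per comparison, and 0 with the 4 arrays fitted alone, with or without a dye term; leaving out each array gave 16 to 43. The 52 indirect calls moved to 173, 112 and 157 under the first 3 of these and to 25 with no dye term. Direct minus indirect called 11 as they stand, 3 scaled, 1 with top values kept and 0 to 1 with an array left out. The 3 calls against HM-1 vs #4 (B6) moved to 15, 20 and 31 under those first 3, to 0 with no dye term and to 1 to 4 with an array left out. The X-linked median of 0.27 was lower in several settings, at 0.062 via ZFCUMNT, 0.0703 via #4 (B6) and 0.195 with 1 coefficient per line. It was higher via HM-1 NT (0.42) and with arrays scaled to equal spread (0.34), and was 0.24 to 0.31 with an array left out. The ratios as they stand gave 0.15. There arrays 3 and 4 enter with the opposite sign to arrays 1 and 2, so that value is not a median of B6NT minus HM-1.

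With the ratios as they stand, signs turned for H4c8 (0.17), Psma2 (-0.61), Rab9 (-0.013), Rcn1 (-0.068), H3f3b (0.26), Gatad1 (-0.26), Arf3 (-1.70), Myc (0.0935), Lefty1 (0.14), Cyp51 (-0.16), Grb10 (0.13), Calcr (0.15), Mbd4 (2.22), Rpl9 (-1.33), Mrpl18 (-0.73), Atp5md (-0.30), Pfkp (-0.025), Ccnd2 (-0.66), Rbl1 (-1.50), Postn (0.32), Afp (0.34), Krt7 (0.97), Krt8 (-0.56), Gsc (-0.80) and Kitl (0.55). Elsewhere Ccnd2 was at -0.059 with single probes, and with an array left out Id1 ran from -2.21 to 0.17 (without array 1), Sox17 from -1.07 to 0.13 (without array 1), Rpl9 from -0.29 (without array 3) to 1.94 and Krt8 from -0.12 (without array 3) to 0.79; with 1 coefficient per line Sox17 was at 0.028 and Krt8 at -0.00037, as with 1 value per comparison. With the ratios as they stand, arrays 3 and 4 enter with the opposite sign to arrays 1 and 2. The values of that setting are therefore a contrast of dyes and not B6NT minus HM-1. The cause of the other changes was not tested.

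Array numbers did not pair across comparisons (median correlation 8.7e-06 over 312 pairs, from -0.033 to 0.051). The array number as a replicate block gave 29 calls, 49 indirect, 0 direct minus indirect and 2 against HM-1 vs #4 (B6). In every leave-one-out, 7 genes kept their calls: H4c8, Zfp42, Psma2, Rab9, Bex1, Rhox5 and Rbm3. All 22 list medians kept their values within the spread with array medians subtracted. With the ratios as they stand, 11 of them moved and 11 did not.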

Other observations

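Outside the genes already described, the indirect arrays called further genes whose direct ratio had the same sign without passing. Mlf2, a myeloid leukemia factor homolog, was at 1.18 ± 0.19 there and at 0.93 ± 0.24 in HM-1 vs B6NT (adjusted p = 0.095). S100a11, a calcium-binding S100 protein, was at 0.81 ± 0.14 and directly at 0.71 ± 0.18 (adjusted p = 0.086). Penk, the enkephalin precursor, was at 0.997 ± 0.24 and directly at 1.16 ± 0.29 (adjusted p = 0.088). Egr1, an immediate early transcription factor, was at -1.20 ± 0.28 and directly at -1.24 ± 0.34 (adjusted p = 0.14). The indirect arrays measured 177 X-linked and 7214 autosomal genes and called 0.387% of all features. Of the 38 named genes called there, 10 were X-linked and 9 of these positive. Mid1, a ubiquitin ligase gene at the edge of the X chromosome, was the negative one, at -1.02 ± 0.21, and directly at -0.23 ± 0.26. These genes were chosen after their values were seen.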
